A study of Mus musculus with 2 samples.

Results

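Sodium, potassium and calcium channels and the ionotropic receptors for glutamate and GABA were followed in 3T3-L1 cells. These are a clonal mouse line of fat cell precursors that differentiates on hormonal induction. The potassium channels include inward rectifiers, leak channels and calcium- or sodium-activated channels beside voltage-gated ones. The genes were taken from the array's probe annotation by symbol: every probe set with a single symbol that began with Scn and a digit, Kcn, Cacn, Grin, Gria or Grik and a digit, or Gabr, leaving out Kcnq1 and Kcnq1ot1. This gave 310 probe sets of 147 genes, out of 34945 probe sets of 18193 genes. Cells had received an siRNA against Phf21a on 1 array, and the control siRNA siGL3, directed at luciferase, on the other. In both groups adipogenesis was induced 24 h after transfection with insulin, dexamethasone and 3-isobutyl-1-methylxanthine, and total RNA was collected 24 h after that, from cultures in DMEM with 25 mM glucose and 10% FBS. With n = 1 array per group no value has a replicate error, no test was run, and a difference between the arrays cannot be told apart from a difference between 2 cultures of the same kind. The question was whether channel and receptor genes that were silent with the control siRNA stayed silent when Phf21a was lowered.

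Phf21a encodes BHC80, a subunit of the BHC corepressor complex, which carries the histone demethylase LSD1 and histone deacetylases to genes bound by the repressor REST. REST recognises a DNA element called RE1 and is known for keeping neuronal genes, ion channels and neurotransmitter receptors among them, off in cells that are not neurons. Voltage-gated channels open on a change of membrane potential and shape the action potential, whereas AMPA, kainate, NMDA and GABA-A receptors open on binding of a transmitter. Some channel families also serve cells that do not fire, for instance leak and calcium-activated potassium channels that set the resting potential.

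The deposited values are MAS5 signal intensities on a linear scale. A gene is called silent on an array when none of its probe sets reached a signal of 51.3, the median of all signals of both arrays, and detected otherwise. Silence in this sense is a signal under a limit, not proof that no transcript was present, because MAS5 subtracts mismatch probes and leaves low signals noisy, and detection calls were not used here. Genes are measured by different probes, so a higher signal does not show that one gene has more transcript than another. The median signal over all probe sets was 49.5 on the Phf21a siRNA array and 53.0 on the control array. Of 9 measured markers of preadipocytes and early fat cells 7 were detected on both arrays, 2 of them higher after Phf21a siRNA and 5 lower. Pparg, the master regulator of fat cells, had 814 after Phf21a siRNA and 512 in control, whereas Dlk1, a preadipocyte gene, had 5940 after Phf21a siRNA and 12290 in control. Under the limit on both arrays were Adipoq, with 26.5 after Phf21a siRNA and 12.5 in control, and Cebpa, with 12 after Phf21a siRNA and 45 in control, both genes of later fat cells.

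Phf21a itself had signals of 306 after Phf21a siRNA and 768 in control on its brightest probe set (log2 ratio -1.33, Phf21a siRNA over control siRNA). Of its other 3 probe sets, 2 were lower as well, with 233 and 67 after Phf21a siRNA, against 592 and 111 in control, and the fourth was under the limit on both arrays. The transcript was lower after Phf21a siRNA but still detected. Of 12 other genes of the REST and BHC machinery that were measured, 11 were detected on both arrays, 5 of them with a log2 ratio above 0 and 6 below. Rcor1, the CoREST scaffold, had 376 after Phf21a siRNA and 939 in control (log2 ratio -1.32, local spread 0.52), a difference of about the size seen for Phf21a. Hdac1, a histone deacetylase, had 2377 after Phf21a siRNA and 4439 in control (-0.90, local spread 0.39), Kdm1a, which encodes LSD1, had 3628 after Phf21a siRNA and 2927 in control, and Rest had 989 after Phf21a siRNA and 1017 in control. The local spread is a robust stand-in for 1 SD, taken from percentiles 16 and 84 of the log2 ratios of the 1000 detected genes nearest in mean signal. At mean signals under the limit a gene enters only with a signal on each side of it. Small ratios are thus missing there, and the spread is not read as 1 SD. The part of these differences in the channel results was not tested.

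Nearly all channel and receptor genes that were silent with the control siRNA were silent after Phf21a siRNA as well. On the control array 123 of the 147 genes (83.7%) were silent, against 7264 of all 18193 genes (39.9%). Of these 123, 3 reached the limit after Phf21a siRNA, which is 2.44%, beside 5.12% of all genes silent in control (372 of 7264). The 3 were Cacna1f, Kcna7 and Kcnab1, and the other 120 stayed under 51.3 on both arrays. The highest signal that any control-silent channel or receptor gene had after Phf21a siRNA was 72.0, and 0 of the 123 reached 100, a level that 41 of the 7264 control-silent genes of the whole array reached. Counted over probe sets in place of genes, 4 of 275 control-silent probe sets reached the limit (1.45%), against 866 of 14719 over the whole array (5.88%). In bulk RNA, fewer cells with a transcript and less transcript per cell cannot be told apart.

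**Figure D1:**
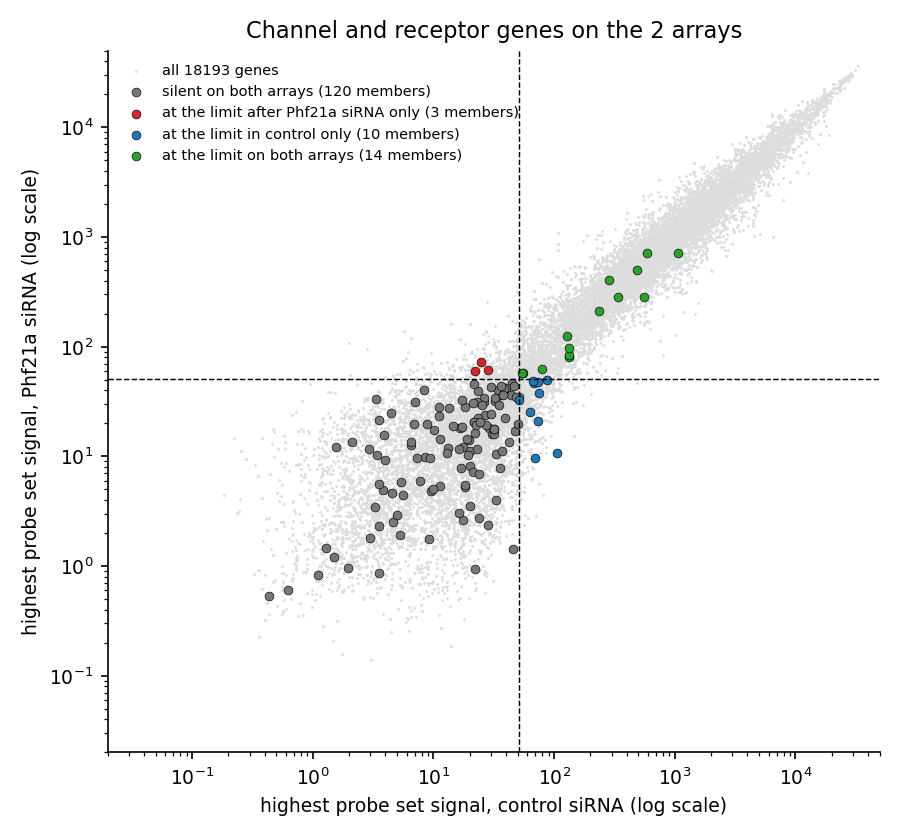
Highest probe set signal of each gene after Phf21a siRNA (vertical axis) against control siRNA (horizontal axis), both on log scales, with all 18193 genes in grey, the 147 channel and receptor genes in colour by state, and dashed lines at the detection limit of 51.3. The 120 dark grey points fill the lower left corner, and the 3 red points lie just over the horizontal line, at 60.6 to 72.0.

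Cacna1f encodes the pore of the L-type calcium channel of photoreceptors. It had a signal of 72.0 after Phf21a siRNA and 24.9 in control on its single probe set. Kcna7, a shaker-type voltage-gated potassium channel known from muscle, had 60.6 after Phf21a siRNA and 22.3 in control, also on 1 probe set. Both were over the limit on the Phf21a siRNA array by little.

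Kcnab1, a cytoplasmic beta subunit of shaker-type channels, had 61.5 after Phf21a siRNA and 28.4 in control, while its second probe set stood at 13.9 after Phf21a siRNA and 1.15 in control. With the control signals of these genes raised to the limit, the fold differences were at least 1.40 for Cacna1f, 1.18 for Kcna7 and 1.20 for Kcnab1. The log2 ratios against the unraised control signals were 1.53, 1.44 and 1.12, beside a local spread of 1.26. That spread sets 1 array against 1 array and includes any true differences. The ratio of Kcnab1 lay within it, but nothing is read from this, because small ratios are missing from the spread at such low signals. With the arrays scaled to the poly-A spike controls, 1 of 114 control-silent channel and receptor genes reached the limit (1.27% of all genes, 85 of 6679) and 22 of 33 crossed downward (12% of all genes, 1376 of 11514). The whole array shifted downward under that scaling.

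The reverse crossing was more frequent. Of the 24 channel and receptor genes detected in control, 10 were silent after Phf21a siRNA (41.7%), where 555 of 10929 genes of the whole array (5.08%) were. Since 12 of the 24 genes had control signals from 51.3 to 100, against 1268 of the 10929, the share was also read within bands of control signal. Among genes whose highest control signal lay from 51.3 to 100, 9 of 12 channel and receptor genes were under the limit after Phf21a siRNA (75%), against 522 of 1268 of all genes (41.2%). Among those with 100 to 200 it was 1 of 5, against 31 of 1101 of all genes (2.82%). Above 200 it was 0 of 7, where hardly any gene fell: 1 of 1849 from 200 to 461 and 1 of 6711 above. Nothing is read from the 0 of 7. The upward crossings did not lie on 1 side of all genes in every band: with control signals from 12.9 to 25 they were 2 of 38 (5.26%), against 3.05% of all genes, and from 25 to 51.3 they were 1 of 40 (2.5%), against 12.8%. Taken from the other side, 130 genes were silent after Phf21a siRNA, and the 10 that were detected in control made up 7.69% of them, near the 7.45% (555 of 7447) over all genes.

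**Figure D2:**
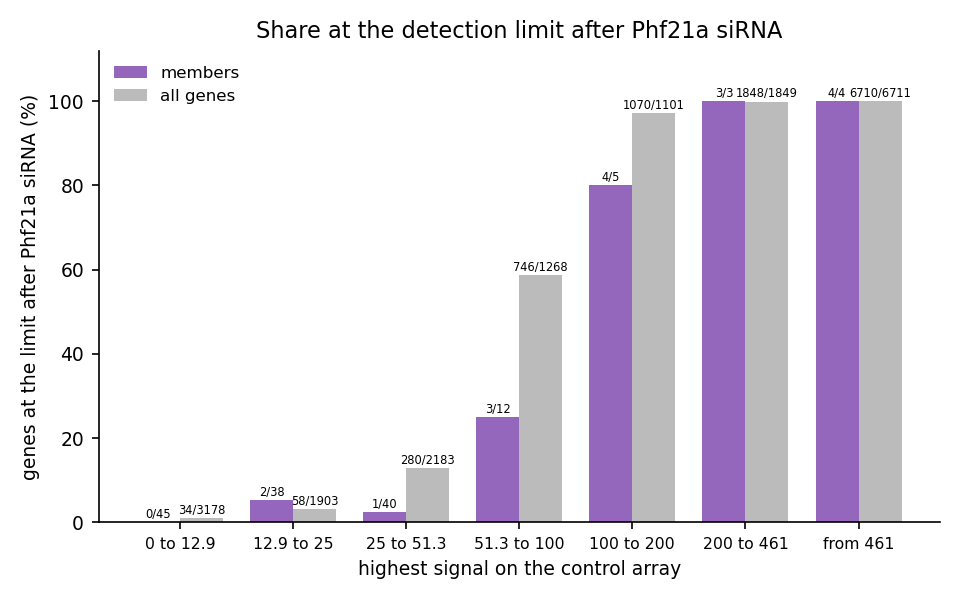
Percentage of genes at the detection limit after Phf21a siRNA (vertical axis), in bands of their highest control signal (horizontal axis), for the channel and receptor genes ("members", purple) and all genes (grey), with the counts over each bar. In the 3 bands under 51.3 the purple bars hold 0 of 45, 2 of 38 and 1 of 40 genes, where the grey bars are at 1.07%, 3.05% and 12.8%, and from 51.3 to 100 the purple bar is at 25% and the grey bar at 58.8%.

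The 10 genes came from potassium, calcium and glutamate receptor families. Kcnc1, a Shaw-type channel of fast-spiking neurons, had signals of 2.68 after Phf21a siRNA and 106 in control, and a second probe set had 10.7 after Phf21a siRNA and 65.8 in control. Its other 2 probe sets were between 1.5 and 2.85 on both arrays. With the Phf21a siRNA signal raised to the limit Kcnc1 was at least 2.07-fold lower, and no other gene of the 10 passed 2-fold on that reading.

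Kcng2, a modifier subunit that forms no channel by itself, had 9.74 after Phf21a siRNA and 69.4 in control. Kcna1 and Kcna4, shaker-type channels of axons and of A-type currents, had 22.1 and 21.7 after Phf21a siRNA, against 74.9 and 66.7 in control. Another probe set of Kcna1 went the other way below the limit, with 38.1 after Phf21a siRNA and 11.3 in control. Another probe set of Kcna4 was level, with 49.1 after Phf21a siRNA and 50.4 in control, so for these 2 genes the probe sets disagreed.

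Among inward rectifiers, Kcnj3, a subunit of the channel opened by G proteins, had 25.6 after Phf21a siRNA and 63.1 in control, and Kcnj4 had 21.1 after Phf21a siRNA and 73.2 in control. Cacna1d, an L-type calcium channel pore, had 47.0 after Phf21a siRNA and 68.1 in control. The receptor subunits were Grin2d of the NMDA receptor, with 49.5 after Phf21a siRNA and 86.6 in control, and the kainate subunits Grik2, with 47.8 after Phf21a siRNA and 73.5 in control, and Grik5, with 32.7 after Phf21a siRNA and 51.4 in control. Cacna1d, Grik2 and Grin2d lay close under the limit after Phf21a siRNA, and Grik5 lay on it in control. Under the limit, the other probe set of Cacna1d had 18.3 after Phf21a siRNA and 15.1 in control. The other probe sets of Kcnj3 went both ways, and those of Grik2 and Grin2d were lower after Phf21a siRNA. Raised to the limit, the 9 genes other than Kcnc1 were lower by at least 1.00-fold (Grik5) to at least 1.69-fold (Grin2d).

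The genes nearest the limit show how much these counts rest on its place. Just inside were Grik5, Kcnma1, with 57.1 after Phf21a siRNA and 54.4 in control, and Kcnab2, a beta subunit of shaker-type channels, with 58.1 after Phf21a siRNA and 55.4 in control. Just outside were Cacng4 at 35.1 after Phf21a siRNA and 50.7 in control, Kcnip4 at 19.6 after Phf21a siRNA and 50.5 in control, and Grin2b at 34.9 after Phf21a siRNA and 48.7 in control. With the limit at the 60th percentile of all signals 0 of 136 control-silent genes reached it (275 of 8722 over all genes, 3.15%) and 3 of 11 detected in control were silent after Phf21a siRNA (263 of 9471 over all genes, 2.78%). With the limit at the 40th percentile 14 of 91 control-silent genes reached it (15.4%), against 690 of 5613 over all genes (12.3%), and 18 of 56 went the other way, against 1034 of 12580 over all genes (8.22%).

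The channel and receptor genes detected on both arrays numbered 14, and 0 of them differed by 2-fold or more, where 4.23% of all 10374 such genes passed that size upward and 3.35% downward. Their log2 ratios ran from -0.96 to 0.51 with a median of -0.11 (0.04 over all genes detected on both arrays). Of the 14, 9 lay below 0, where 46.7% of all genes detected on both arrays did.

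Kcnj11, the pore of the ATP-sensitive potassium channel that couples glucose to insulin release in beta cells, had 286 after Phf21a siRNA and 556 in control (log2 ratio -0.96, local spread 0.52). Its other probe set, under the limit, had 19.7 after Phf21a siRNA and 4.89 in control, and the mean over both gave -0.17. Cacng7, a gamma subunit that also regulates AMPA receptors, had 80.1 after Phf21a siRNA and 132 in control (-0.72, local spread 0.70). Of the 14, these 2 differed by more than their local spread. The spread is taken from percentiles of the log2 ratios, so some genes lie outside it by construction. The share of all genes outside it was not counted, so nothing is read from these 2.

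Leak and calcium-activated potassium channels differed little. Kcnk2, a mechanosensitive leak channel, had 499 after Phf21a siRNA and 486 in control (log2 ratio 0.04). Kcnn4, the intermediate-conductance calcium-activated channel of proliferating cells, had 714 after Phf21a siRNA and 585 in control (0.29, local spread 0.53), with a second probe set at 379 after Phf21a siRNA and 384 in control. Kcnma1, the large-conductance calcium-activated channel, sat at the limit with the signals given above, and its other 4 probe sets were under 14 on both arrays.

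Among voltage-gated potassium channels, Kcnd1, an A-type channel, had 211 after Phf21a siRNA and 237 in control, and Kcnh3, a brain channel of the ether-a-go-go family, had 81.5 after Phf21a siRNA and 105 in control. The log2 ratios were -0.16 and -0.36. All 3 detected probe sets of Kcnd1 and all 3 of Kcnh3 were lower after Phf21a siRNA, down to -0.93 and -0.46.

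The calcium channel subunits included Cacna2d1, the alpha2delta subunit bound by gabapentin, with 710 after Phf21a siRNA and 741 in control (log2 ratio -0.06). Its 4 detected probe sets were all lower but disagreed in size, and the furthest had 321 after Phf21a siRNA and 1058 in control (-1.72). Cacnb2, a beta subunit that brings the pore to the membrane, had 404 after Phf21a siRNA and 283 in control (0.51, local spread 0.56), and its other probe set had 209 after Phf21a siRNA and 202 in control. Scaled to the poly-A spike controls instead, the log2 ratio of Cacnb2 was -0.22 and that of Kcnn4 was -0.45. The pore genes Cacna1c, of heart and smooth muscle, and Cacna1a, of presynaptic terminals, had 126 and 62.2 after Phf21a siRNA, against 127 and 80.1 in control. A second probe set of Cacna1a had 20.2 after Phf21a siRNA and 58.6 in control, and with suffixed probe sets left out the log2 ratio of this gene was -1.53 in place of -0.37.

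Transmitter receptor subunits detected on both arrays were Gabre and Gria2. Gabre, the epsilon subunit of GABA-A receptors, had 283 after Phf21a siRNA and 341 in control (log2 ratio -0.27). Gria2, the AMPA receptor subunit that limits calcium entry, had 83.4 after Phf21a siRNA and 133 in control (-0.67, local spread 0.70), while its 2 other probe sets stood at 11.8 and 1.42 after Phf21a siRNA and at 20.1 and 11.3 in control. Each of these differences lay within the local spread.

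Promoter sequences from RefSeq (GRCm38.p6, 250 bases before to 50 after each annotated start) were matched to 113 of the 147 genes, 152 promoters in all. They were searched on both strands for 2 letter strings of the RE1 element, CAGCACC and GGACAG, and for both in that order with 2 bases between (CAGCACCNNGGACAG). The first was found in 7.24% of the 152 promoters and in 7.14% of all 32851 promoters, the second in 26.3% and 22.2%, and the exact pair in 0 of the 152 and 12 of the 32851. In a search added after this result was known, at most 1 letter off among the 13 fixed ones was found in 2 of the 152 (1.32%) and 61 of all promoters (0.186%), and at most 2 letters off in 6 (3.95%) and 632 (1.92%). The 6 windows are printed to show how close these genes come to the element, each read 5′ to 3′ on the strand of the match, with letters equal to the fixed ones in capitals.
Gria2: tAGCACCgcGGACAG
Kcna5: CAGCAgCaaGGACAG
Gabrb1: gAGCACCtcaGACAG
Grik2: CAGCAgCggGGAaAG
Kcnip1: CAGCgCCagGGACtG
Kcnip3: gAGaACCagGGACAG
Gria2 and Kcna5 were 1 letter off, and the other 4 were 2 letters off. The Gria2 window lies at chr3:80802991-80803005 on the plus strand, with the gene on the minus strand. Its promoter, at chr3:80802786-80803085 on the minus strand, is the sole one among detected genes with at most 1 letter off, and is shown whole with that window in capitals, here on the gene's own strand, where it reads as the reverse complement.
Gria2: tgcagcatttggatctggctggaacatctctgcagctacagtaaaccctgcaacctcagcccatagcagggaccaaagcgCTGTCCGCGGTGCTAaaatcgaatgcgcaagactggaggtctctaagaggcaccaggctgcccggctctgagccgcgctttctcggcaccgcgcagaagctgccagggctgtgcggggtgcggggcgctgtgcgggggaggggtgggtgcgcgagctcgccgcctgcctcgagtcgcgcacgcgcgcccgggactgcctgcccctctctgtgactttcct
Gria2 was lower after Phf21a siRNA (83.4, against 133 in control), Grik2 was at 47.8 after Phf21a siRNA and 73.5 in control, and Kcna5, Gabrb1, Kcnip1 and Kcnip3 were silent on both arrays. None of the 6 genes crossed the limit upward. Gria2 and Grik2, detected in control, could not. With 5.12% of all control-silent genes reaching the limit, nothing is read from this for the others. A match of letters is not a site of binding, and RE1 elements outside these windows were not searched.

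Promoters of the genes that crossed the limit differed in CpG content, shown for 1 gene of each direction with every CpG in capitals. Kcna7, over the limit after Phf21a siRNA only, has 4 CpG in chr7:45405710-45406009 on the plus strand. Kcnc1, over the limit in control only, has 41 in chr7:46396218-46396517 on the plus strand.
Kcna7: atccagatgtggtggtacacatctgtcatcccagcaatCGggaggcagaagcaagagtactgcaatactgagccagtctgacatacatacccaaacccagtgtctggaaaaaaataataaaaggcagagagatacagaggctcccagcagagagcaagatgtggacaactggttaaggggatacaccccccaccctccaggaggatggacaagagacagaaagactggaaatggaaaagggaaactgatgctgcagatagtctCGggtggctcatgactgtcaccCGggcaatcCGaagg
Kcnc1: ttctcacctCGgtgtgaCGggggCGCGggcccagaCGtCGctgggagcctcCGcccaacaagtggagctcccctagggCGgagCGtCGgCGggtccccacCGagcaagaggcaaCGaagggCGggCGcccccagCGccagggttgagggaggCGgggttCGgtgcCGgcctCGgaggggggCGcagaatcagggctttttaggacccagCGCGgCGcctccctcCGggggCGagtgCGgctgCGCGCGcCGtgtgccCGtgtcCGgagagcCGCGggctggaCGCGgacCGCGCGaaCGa
The 5 promoters of the 3 upward genes had a median of 4 CpG and the 9 promoters of 8 downward genes a median of 20. Several of the 5 belong to Kcnab1 alone, with 1, 3 and 7 CpG. The 41 of Kcnc1 equals the upper quartile of the downward promoters, so the pair shown is further apart than the medians. Channel and receptor genes detected on both arrays had a median of 19.5, and those silent on both had 9. Over all measured genes the median was 6 for those silent on both arrays and 21 for those detected on at least 1. The downward genes themselves ranged from 4 CpG at 1 promoter of Cacna1d to 63 at its other, so the 2 directions overlap.

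**Figure D3:**
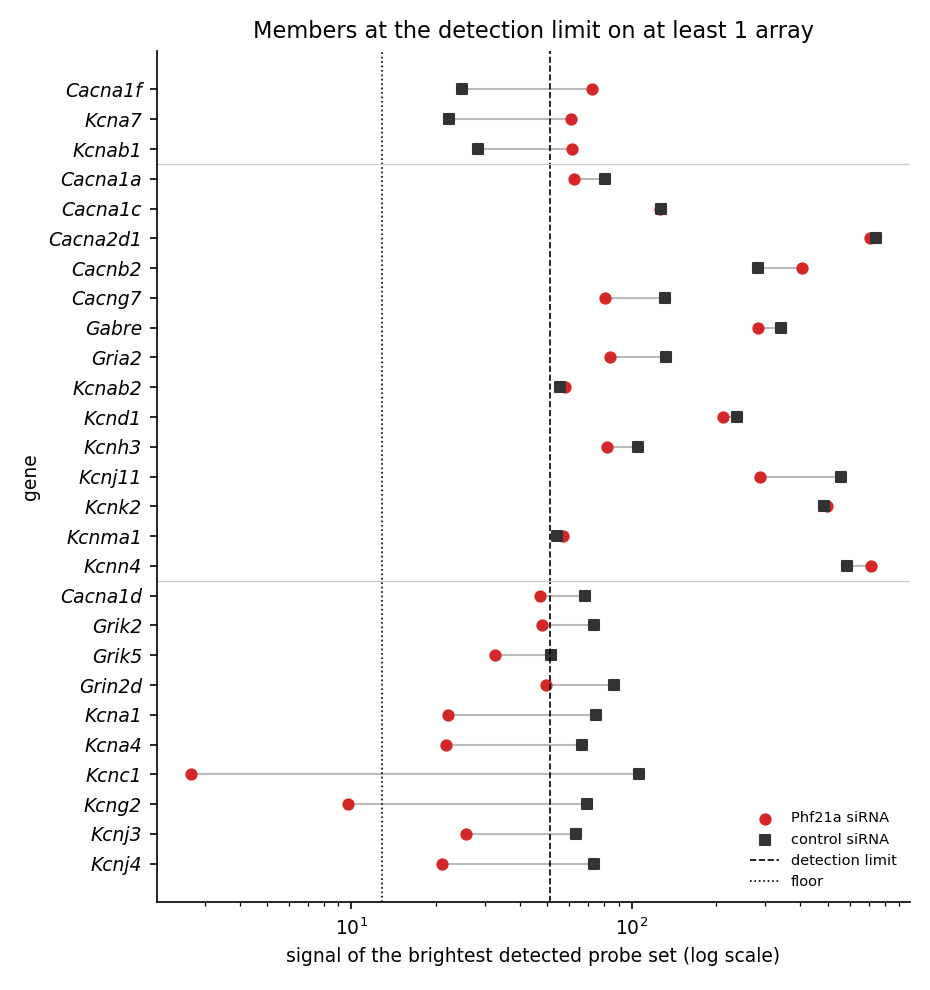
Signal of the brightest detected probe set (horizontal axis, log scale) after Phf21a siRNA (red circles) and control siRNA (black squares) for the 27 channel and receptor genes at the limit on at least 1 array, with the limit (dashed) and the floor of 12.9 (dotted). The top block holds the 3 genes over the limit after Phf21a siRNA only, the middle block the 14 over it on both arrays, and the bottom block the 10 over it in control only.

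Over the 27 genes detected on at least 1 array, 3 passed 2-fold upward after Phf21a siRNA and 6 passed it downward, beside 5.66% and 5.44% of all 11301 detected genes. These ratios were taken after signals under 12.9, the 25th percentile of all signals, were raised to that floor. With signals raised to the limit, the counts were 0 higher and 1 lower (Kcnc1), against 4.13% and 3.32% of all detected genes. The median log2 ratio of the 27 genes was -0.37, and 19 of them lay below 0 (47.8% of all detected genes). The 10 genes detected in control only lie below 0, and the 3 detected after Phf21a siRNA only lie above it, by the way they entered the set, so nothing is read from these counts. For the 14 genes detected on both arrays the median was -0.11, as given above. Of 8 genes with several detected probe sets, 5 had all of these lower, 1 (Cacnb2) had all higher, and 2 (Cacna1c and Kcnn4) were mixed. The 5 include Kcnc1, detected in control only and so lower by the way it entered the set. The same was not counted over all genes, so nothing is read from it.

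**Figure D4:**
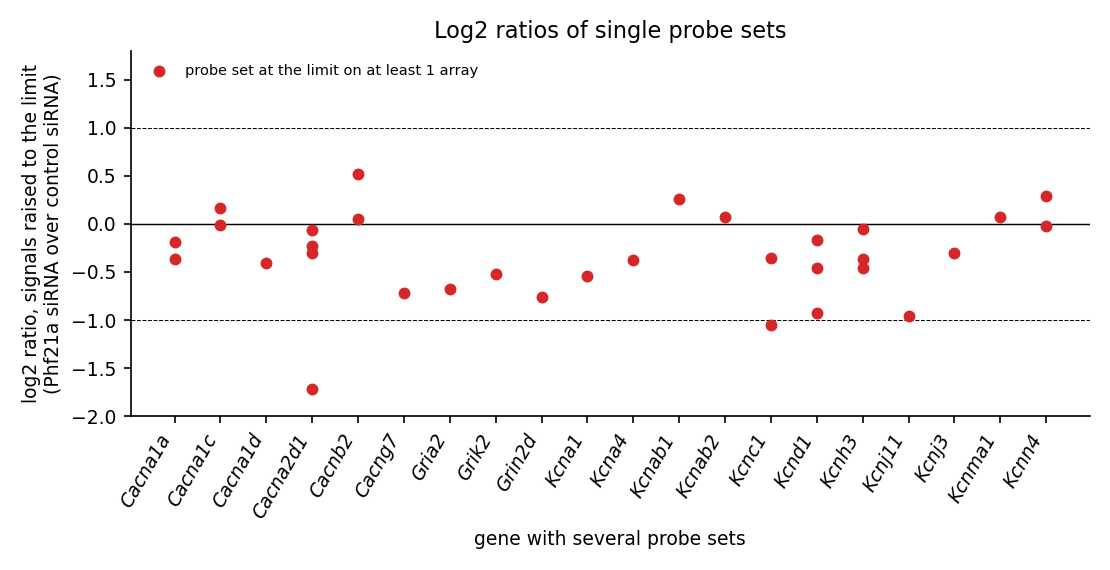
Log2 ratio of each probe set that reached the limit on at least 1 array (vertical axis, Phf21a siRNA over control siRNA, signals raised to the limit), for the detected channel and receptor genes with several probe sets (horizontal axis), with dashed lines at 2-fold. Points past the lower line belong to Kcnc1 and to 1 probe set of Cacna2d1, and none lies past the upper line.

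Below the limit the 120 genes silent on both arrays moved in both directions. After Phf21a siRNA 53 of them (44.2%) had the higher signal, against 43.2% of the 6892 genes of the whole array that were silent on both. Their highest signals were 46.9 after Phf21a siRNA (Gria4, an AMPA receptor subunit, with 44.7 in control) and 50.7 in control (Cacng4). Of the 120, 31 stayed under the floor of 12.9 on both arrays, against 2270 of the 6892. Over all 310 probe sets the median was 10.8 after Phf21a siRNA and 13.4 in control, with quartiles of 3.54 and 24.1 after Phf21a siRNA and 3.96 and 28.9 in control.

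By family, 0 of 11 sodium channel genes reached the limit on either array. Their 8 alpha subunits, which form the pore, had highest signals of 1.22 to 43.7 after Phf21a siRNA and 1.5 to 36.5 in control. The 3 beta subunits, which adjust gating and adhesion, had 2.38 to 13.6 after Phf21a siRNA and 19.2 to 42.0 in control, and all 3 were lower after Phf21a siRNA. Of the 8 alpha subunits, 3 had the higher signal after Phf21a siRNA and 5 in control.

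Voltage-gated potassium channel pores held 30 genes, of which 23 were silent on both arrays, 1 crossed upward (Kcna7), 4 crossed downward and 2 were detected on both. Inward rectifiers had 12 of 15 silent on both arrays, and leak channels had 11 of 12. Of the 8 calcium- or sodium-activated channels 6 were silent on both, as were 15 of the 17 auxiliary potassium channel entries, which include 2 transcripts from the strand opposite Kcnmb4. Silent on both arrays were also 5 of 9 calcium channel pores, 3 of 4 alpha2delta, 2 of 3 beta and 7 of 8 gamma subunits.

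Among transmitter receptors, which carry excitation (glutamate) and inhibition (GABA), NMDA receptors had 5 of 6 subunits silent on both arrays, AMPA receptors 3 of 4, kainate receptors 3 of 5 and GABA-A receptors 14 of 15. Of the 25 control-silent genes of these 4 families, 0 reached the limit after Phf21a siRNA, beside 5.12% of all control-silent genes, and 0 of 25 is not read as a difference from that share.

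**Figure D5:**
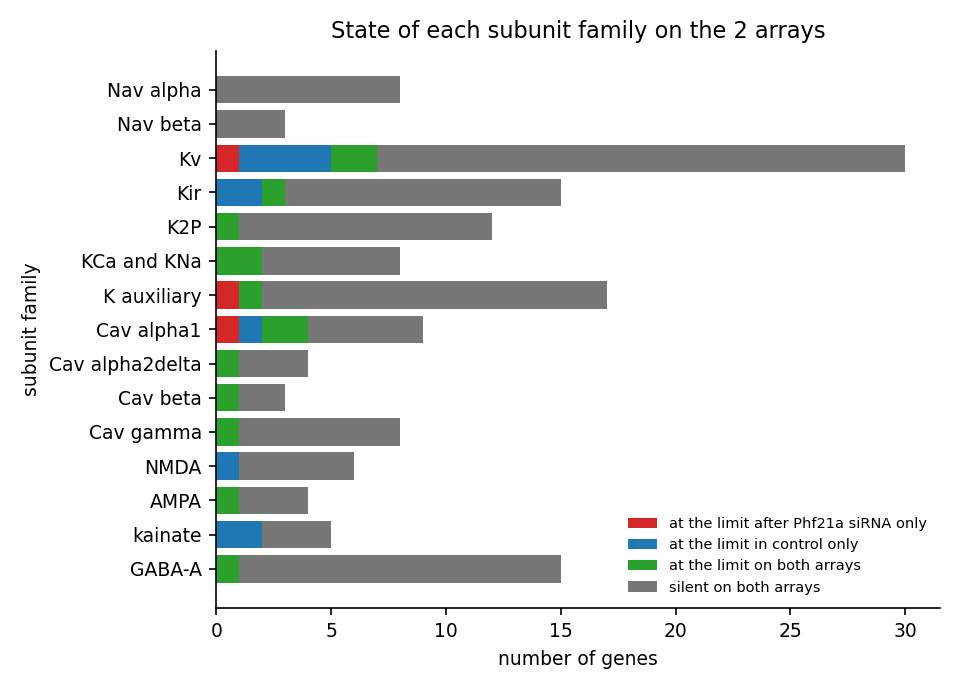
Number of genes (horizontal axis) of each subunit family (vertical axis) by state, with red for genes at the limit after Phf21a siRNA only, blue for control only, green for both arrays and grey for neither. Red appears in 3 families only (Kv, potassium channel auxiliary and Cav alpha1, 1 gene each), and both sodium channel families are grey throughout.

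Channel and receptor genes known from neurons or other cells as direct REST targets were looked at whatever their values, and 15 were measured. Of these 11 were silent in control, and all 11 were silent after Phf21a siRNA too. With 5.12% of all control-silent genes reaching the limit, 0 of 11 is not read as particular to these targets. Scn2a, the brain sodium channel in which an RE1 element was first described in rat, had highest signals of 43.7 after Phf21a siRNA and 36.5 in control over 4 probe sets. Kcnh2, which carries a repolarising current of the heart, had 41.8 after Phf21a siRNA and 39.6 in control, and Kcnj6, a G protein-gated rectifier, had 43.6 after Phf21a siRNA and 46.6 in control. Scn1a had 27.7 after Phf21a siRNA and 13.5 in control, Scn3a 12.1 after Phf21a siRNA and 1.57 in control, and Scn8a 6.91 after Phf21a siRNA and 23.9 in control.

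The other 5 were also under the limit on both arrays. Kcnip3, a calcium-binding channel partner, had 11.3 after Phf21a siRNA and 36.9 in control, Kcnq3, a subunit of the M-current, 4.98 after Phf21a siRNA and 3.8 in control, and Cacna1b, the N-type calcium channel pore, 12 after Phf21a siRNA and 13.3 in control. Grin2a, an NMDA receptor subunit, had 14.1 after Phf21a siRNA and 19.7 in control, and the values of Grin2b are given above. Of the 4 targets detected in control, Kcnn4, Gria2 and Cacna1a were detected on both arrays and Grik2 in control only.

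Markers of other cell types were read beside these counts. Of 10 neuron markers 3 were detected, on both arrays and with the lower signal after Phf21a siRNA in each: Tubb3 had 84.5 after Phf21a siRNA and 171 in control, Map2 144 after Phf21a siRNA and 258 in control, and Syn1 54.5 after Phf21a siRNA and 71.9 in control. The summed signal of the 10 was 398 after Phf21a siRNA and 645 in control. The 7 under the limit went both ways: Stmn2 had 33.8 after Phf21a siRNA and 3.42 in control, and Nefl 17.2 after Phf21a siRNA and 0.918 in control, while Syp had 3.44 after Phf21a siRNA and 44.9 in control, and Snap25 2.38 after Phf21a siRNA and 5.58 in control. Muscle markers summed to 93.8 after Phf21a siRNA and 182 in control over 6 genes, of which 2 (Actn2 and Ckm) were over the limit in control only. Glial and Schwann cell markers summed to 71.6 after Phf21a siRNA and 116 in control over 4 genes, of which 1 (Sox10) was over it in control only. Leukocyte markers summed to 175 after Phf21a siRNA and 159 in control over 6 genes, with 1 gene crossing in each direction (Fcer1g upward, Laptm5 downward). The neuron, muscle and glial sums were lower after Phf21a siRNA and the leukocyte sum was higher. A lower sum was not particular to these cell types. The 9 markers of preadipocytes and early fat cells summed to 28477 after Phf21a siRNA and 34218 in control. The muscle and glial sums rest on low signals, the highest being 55.5 and 63.2, both in control. The part of such cells in the channel counts was not tested.

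Other neuronal genes known as REST targets were counted in the same way. Of 54 measured outside the channel and receptor families, 41 were silent in control, and 1 of these (2.44%) reached the limit after Phf21a siRNA, beside 5.12% of all genes. It was Scg5, a chaperone of neuroendocrine secretory granules, with 76.5 after Phf21a siRNA and 27.6 in control. Of 13 detected in control 2 were silent after Phf21a siRNA, beside 5.08% of all genes: Vgf, a secreted neuropeptide precursor, had 4.76 after Phf21a siRNA and 55.9 in control, and Gdap1, a mitochondrial protein of neurons, had 35.6 after Phf21a siRNA and 83.7 in control. Over the 14 detected genes 1 passed 2-fold upward and 4 downward, beside 5.66% and 5.44% of all detected genes. Their median log2 ratio was -0.31, beside 0.03 over all detected genes. Scg5, Vgf and Gdap1 have their sign by the way they entered the set, so nothing is read from these counts. Among those detected on both arrays, the adhesion molecule Ncam1 had 2053 after Phf21a siRNA and 1303 in control (log2 ratio 0.66, local spread 0.46). Dnm1, a dynamin of synaptic vesicle recycling, had 619 after Phf21a siRNA and 1475 in control (-1.25, local spread 0.47).

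Comparison families chosen by symbol gave upward shares of 5% for other neurotransmitter receptors (2 of 40 control-silent genes), 10.8% for other ion channels (4 of 37) and 7.5% for synaptic proteins (3 of 40), beside the 2.44% of the channels and receptors described here. Their downward shares were 36.4% (4 of 11), 12.5% (3 of 24) and 5.56% (2 of 36), beside 41.7%. With 1 array per group these shares describe 2 arrays, and their differences were not tested.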

How the data were processed

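Total RNA of 2 samples was measured, 1 array per group, grouped by the sample descriptions. Each value is a linear signal intensity that the authors computed with MAS5, per the submitters' processing notes, and was used as deposited. Biotin-labelled cRNA came from 1 ug of total RNA, per the labels' protocols. Of 45101 probe sets 64 were controls, 932 mapped to several genes and 9160 to none, and all of these were left out. Entrez numbers placed all 147 genes in a current gene table, with 0 changes of symbol. The detection limit and the floor were percentiles 50 and 25 of all signals pooled over both arrays. Each gene was represented by its detected probe set with the highest mean log2 signal, and the suffix _x_at was used only for lack of another.

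With 1 array per group no test was run and no p-value computed. The number of arrays limits the precision. Genes were counted by state and by a cutoff of 2-fold, beside the same counts over all genes.

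The members, gene lists and cutoffs were chosen with earlier results of these data known. The rule for naming takes Phf21a, the 8 members with the highest signals, all that crossed the limit, the 10 highest and 10 lowest ratios among those at the limit on both arrays, the known REST targets, and 3 on each side of the limit. Gria4 and the genes named with promoter matches or CpG counts were chosen after their values were seen, as were the genes named from the other lists. The counting was tested on simulated data. Alternatives were 5 normalizations, other floors, limits and cutoffs, and other ways to combine probe sets. Python 3.11.15, numpy 2.4.6, pandas 2.3.3, statsmodels 0.14.6 and matplotlib 3.10.9 were used.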

Additional observations from a re-analysis of the deposited data

How the results depend on the processing

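The reported results were 3 control-silent genes reaching the limit, 10 crossing the other way, 3 and 6 genes at least 2-fold higher and lower, and a median log2 ratio of -0.37. Scaling to the poly-A controls gave a median over all detected genes of -0.74 (0.03 as reported), and the 5 results became 1, 22, 0, 21 and -1.27, beside counts of 85, 1376, 92 and 3572 over all genes. Relative to all genes the channels' median was then -0.53, against -0.40 as reported. Scaling to the hybridisation controls gave a median of -0.68 (-0.21 over all genes), and median centring -0.27 (0.13 over all genes). With the floor at the detection limit 0 genes were 2-fold higher and 1 lower. Averaging probe sets left 6 downward crossings among 15 genes detected in control (512 of 10218 over all genes). Leaving out suffixed probe sets gave a median of -0.65 (0.01 over all genes). The limit at percentile 60 gave 0, 3, 0, 0 and -0.16, at percentile 75 it gave 0, 1, 0, 0 and -0.01, and at percentile 40 it gave 14, 18, 8, 16 and -0.09. Over all genes the same were 275, 263, 452, 358 and 0.05 at percentile 60. They were 468, 379, 259, 240 and 0.05 at percentile 75, and 690, 1034, 940, 1138 and 0.01 at percentile 40. Requiring 2-fold as well as crossing left 6 downward crossings among 24 genes detected in control (267 of 10929 over all genes). A cutoff of 1.5-fold gave 12 of 27 genes lower (1570 of 11301 over all genes). One of 3-fold gave 0 of 27 higher (188 of 11301 over all genes). The other recomputed counts stayed within 1.5 times of those reported. Among named genes, 269 of 292 recomputed ratios moved by less than the local spread, 14 of the 23 others under poly-A scaling, and 14 of the 292 changed sign. Genes not detected under a setting, such as Kcna7 and Kcnab1 under poly-A scaling, were left out of this count. The spread was wide at low signals: Cacna1f counted as within it at 1.53 as reported and 0.49 with the floor at the limit. Why these settings moved the results was not tested. Signals near the limit set the counts, so crossings of genes under 100 are uncertain. No paired analysis was possible because each group held 1 array.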

Other observations

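G+C content of the 152 promoters of channel and receptor genes had a median of 57.8% for genes silent on both arrays and 60.8% for those detected on at least 1, beside 53.0% and 61.0% over all measured genes in these states. The string CAGCACC was present in 10 of 120 promoters of silent channel and receptor genes and in 1 of 32 of detected ones, beside 7.56% and 7.6% over all measured genes in these states. GGACAG was present in 34 of 120 (28.3%) and 6 of 32 (18.8%), beside 24.9% and 22.3%. Both strings occurred in 2 of the 152 promoters (1.32%), beside 567 of all 32851 promoters (1.73%). The 2 belong to Kcng4 and to a transcript opposite Kcnmb4. Kcng4, a modifier subunit of voltage-gated potassium channels, was silent on both arrays (14.3 after Phf21a siRNA and 19.1 in control). A probe set shared by Gabrg3 and another gene, which was not counted above, had 13.1 after Phf21a siRNA and 7.67 in control, under the limit on both arrays.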
